A study of Mus musculus and Homo sapiens with 20 samples.

Results

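The genes described here are 10 components and classic targets of the nuclear factor kappa B (NF-kB) pathway: the chemokine genes CXCL1, CXCL5, CCL2 and CCL7, the cytokine gene IL6, the subunit genes NFKB1, NFKB2 and RELB, and the inhibitor genes NFKBIA and TNFAIP3. They were chosen by symbol, ignoring case, and all 10 were found in each of 3 RNA-seq count tables, which list 63568 human genes and 43626 mouse genes. The cells were K562, a human chronic myeloid leukaemia line, MEF, embryonic fibroblasts of the mouse, and HPC-7, a mouse line of blood precursor cells. HSP90i libraries came from cells given NVP-AUY922, an inhibitor of the HSP90 chaperones, for 16 h. The dose was 300 nM for K562, 200 nM for MEF and 50 nM for HPC-7. Control libraries, whose count columns are named for the solvent DMSO, came from the same line without inhibitor, and each line had 3 libraries of each kind. Line and dose changed together, and no source used here gives a genotype, an animal's age, or how the MEF were derived or immortalised. The question put to these genes was how their transcripts differed between inhibited and control cells within each line.

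NF-kB transcription factors are dimers of Rel-family proteins that inhibitors of the IkB family hold in the cytoplasm. Receptors for TNF, interleukin 1 and microbial products activate the IKK kinase complex through adaptors and ubiquitin chains, IkB is degraded, and the dimers enter the nucleus; a second, noncanonical route processes the NFKB2 precursor and works through RELB. Several kinases of the pathway are textbook HSP90 clients. Targets include the genes of its own inhibitors, which form feedback loops, and in fibroblasts the chemokine genes that call neutrophils and monocytes to a site of injury.

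The promoters of these genes are known for NF-kB sites close to the start, so the 180 bases before the start are shown for the members with a window in the RefSeq table of GRCm38.p6. Windows there run from 250 bases before to 50 bases after a start, and 5 of 10 members had one: Cxcl1, Il6, Nfkb2, Nfkbia and Tnfaip3. Ccl2, Ccl7, Cxcl5, Nfkb1 and Relb had none. Sequences are written 5′ to 3′ on the strand of the gene, and capitals mark matches on either strand to the 10-letter NF-kB consensus or to the overlapping 9-letter motif GGANTTTCC, with overlapping matches run together. The stretches are chr5:90891065-90891244 (plus strand) for Cxcl1, chr5:30012934-30013113 (plus) for Il6, chr19:46304557-46304736 (plus) for Nfkb2, chr12:55492648-55492827 (minus) for Nfkbia and chr10:19015411-19015590 (minus) for Tnfaip3.
Cxcl1: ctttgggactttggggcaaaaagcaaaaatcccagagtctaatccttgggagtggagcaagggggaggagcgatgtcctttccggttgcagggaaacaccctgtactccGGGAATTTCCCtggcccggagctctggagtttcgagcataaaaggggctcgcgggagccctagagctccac
Il6: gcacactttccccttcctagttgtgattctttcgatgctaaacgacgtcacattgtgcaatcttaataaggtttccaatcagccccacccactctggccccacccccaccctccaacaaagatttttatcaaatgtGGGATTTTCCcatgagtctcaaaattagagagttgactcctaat
Nfkb2: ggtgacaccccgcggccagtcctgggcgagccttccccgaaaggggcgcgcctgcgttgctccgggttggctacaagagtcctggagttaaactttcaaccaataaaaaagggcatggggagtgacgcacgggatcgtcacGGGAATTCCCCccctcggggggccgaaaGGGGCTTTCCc
Nfkbia: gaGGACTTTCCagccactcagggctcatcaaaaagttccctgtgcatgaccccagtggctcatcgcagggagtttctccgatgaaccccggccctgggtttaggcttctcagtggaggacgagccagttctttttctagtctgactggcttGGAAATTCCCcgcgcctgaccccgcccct
Tnfaip3: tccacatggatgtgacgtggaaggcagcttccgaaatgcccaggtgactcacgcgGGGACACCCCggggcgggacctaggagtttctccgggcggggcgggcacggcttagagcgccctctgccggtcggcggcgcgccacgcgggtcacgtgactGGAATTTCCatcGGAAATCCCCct
At least 1 match to either motif was found in 7 of the 8 windows of these 5 genes, the exception being a second Tnfaip3 window. The windows are not independent. Nfkb2 windows chr19:46305445-46305744 and chr19:46305680-46305979 overlap and share the match at chr19:46305705-46305714. Among all 32817 windows of 300 bases, 4.5% held the consensus and 1.26% held GGANTTTCC, each motif counted alone. The members were chosen as known pathway genes, so these shares are background and not a test. In Cxcl1 the run of matches lay 71 to 61 bases before the start, in Il6 44 to 35 bases before it, and in Nfkbia 29 to 20 bases before it, with a further GGANTTTCC match 178 to 170 bases before. Tnfaip3 carried 3 matches, and Nfkb2 carried 2 runs in the window shown, whose start lies inside the annotated gene. These are matches of letters, not measured binding.

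Levels are given as CPM, read counts scaled to library size with TMM factors. Each gene that passed a filter on low counts was tested with edgeR's quasi-likelihood test, and a gene was called when its Benjamini-Hochberg adjusted p over all genes tested was under 0.05. Library totals were 7936066 to 10950573 counts in K562, 10542305 to 22872539 in MEF and 10131491 to 16859394 in HPC-7. Nothing in the labels says that replicates came from separate cultures, so a p-value measures only the spread between these libraries. In bulk libraries such as these, fewer cells of a type and less RNA per cell cannot be told apart. All 8 fibroblast markers were tested in MEF, where their summed level was 17870 to 18249 CPM in Control, against 528 to 593 CPM in HPC-7 Control. In HPC-7, Vim (369 CPM) and Pdgfrb (191 CPM) made up most of that sum, and Thy1 and Dcn had no read. The 7 blood precursor markers summed to 2311 to 2350 CPM in HPC-7 Control. The 7 erythroleukaemia markers summed to 756 to 1145 CPM in K562 Control. In those libraries the blood precursor list summed to 756 to 914 CPM, the fibroblast list to 602 to 806 and the epithelial list to 450 to 778. The macrophage and monocyte list summed to 193 to 212 CPM and the endothelial list to at most 0.295 CPM. MEF Control replicate 3 carried reads of blood genes, with 77 of Kit against 0 to 11 in the other MEF libraries.

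In MEF the members moved in one direction. Of 8 members tested, 0 rose, 7 fell and 1 (Nfkb1) was not called. Over all 12340 genes tested in MEF, 73.4% were called, 35.1% higher and 38.2% lower. No overlap between the groups was seen for 7 of the 8 members and for 76.2% of all genes, so a call or a lack of overlap was common in this line. The median log2 fold change was -1.06 over the 8 members and -0.01 over all genes tested. The members were chosen with earlier results of these data known. Their directions and medians in each line are therefore a description and not a test. Cxcl5 and Il6 did not pass the filter in MEF.

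Cxcl1, which encodes a neutrophil-attracting chemokine and lies at chr5:90891245-90893121, had 42.2, 48.4 and 47.2 CPM in MEF Control replicates 1, 2 and 3, and 2.51, 1.67 and 1.60 CPM in HSP90i. The groups were far apart, with every Control library above every HSP90i library. The log2 fold change was -4.49 ± 0.14 (SE, edgeR adjusted p = 3.67e-08, n = 3 libraries per group). Ccl2 encodes the main monocyte-attracting chemokine (chr11:82035577-82037452). It had 66.2, 63.1 and 52.5 CPM in Control and 7.82, 5.85 and 7.29 CPM in HSP90i, a log2 fold change of -3.10 ± 0.13 (edgeR adjusted p = 1.02e-07). Its close relative Ccl7, which acts on overlapping receptors, starts 8259 bases beyond the end of Ccl2 (chr11:82045712-82047525). Ccl7 had 49.1, 43.9 and 41.0 CPM in Control and 6.52, 5.66 and 4.44 CPM in HSP90i, a log2 fold change of -2.98 ± 0.13 (edgeR adjusted p = 1.57e-07). For both neighbours the lowest Control library was several times the highest HSP90i library.

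The neighbours of these chemokine genes in the genome are shown by their reads over 3 libraries per group, since most had too few for a test. In the Cxcl cluster of chromosome 5, Cxcl1 had 1969 reads in MEF Control and 88 in HSP90i. Ppbp, the gene of another neutrophil chemokine, had 803 and 110. Cxcl15 had 285 and 244 and was not called, with a log2 fold change of -0.19 ± 0.14 (edgeR adjusted p = 0.239). Cxcl5 (chr5:90759298-90761625), Cxcl3, Cxcl2 and Pf4 had at most 4 reads in either group, so a difference for them was not detectable at this depth. In the Ccl cluster of chromosome 11, Ccl2 had 2725 reads in Control and 307 in HSP90i, and Ccl7 had 2013 and 246. Ccl11, Ccl12, Ccl8 and Ccl1 had at most 4 reads in either group.

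Il6, the gene of the inflammatory cytokine interleukin 6 (chr5:30013114-30019975), had few reads in MEF. Its level was 0.660, 0.568 and 0.475 CPM in Control and 0.579, 0.650 and 0.978 CPM in HSP90i, and the groups overlapped. The 26 reads in Control and 30 in HSP90i gave a ratio of 1.18 per library size, with an exact 95% counting interval of 0.676 to 2.08 that covers counting error only.

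Among the subunit genes in MEF, Nfkb2 and Relb, the pair of the noncanonical route, fell, and Nfkb1 was not called. Nfkb2 encodes the p100 precursor of p52 (chr19:46300994-46312400). It had 170.7, 170.6 and 180.8 CPM in Control and 98.2, 96.2 and 93.5 CPM in HSP90i, a log2 fold change of -0.86 ± 0.05 (edgeR adjusted p = 5.89e-07). Relb, whose product pairs with p52 (chr7:19606217-19629438), had 29.5, 27.4 and 25.9 CPM in Control and 14.9, 13.3 and 14.5 CPM in HSP90i. Its log2 fold change was -0.96 ± 0.08 (edgeR adjusted p = 9.44e-06), and neither gene's groups overlapped. Nfkb1 encodes the p105 precursor of p50 (chr3:135584655-135691969). It had 121.2, 129.1 and 132.0 CPM in Control and 121.6, 120.2 and 118.6 CPM in HSP90i. These groups overlapped, and the log2 fold change of -0.08 ± 0.05 did not pass (edgeR adjusted p = 0.153).

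Both inhibitor genes fell in MEF. Nfkbia encodes IkB alpha, the inhibitor that is degraded and resynthesised in each round of signalling (chr12:55489409-55492647). It had 39.8, 36.1 and 35.2 CPM in Control and 27.5, 23.6 and 20.9 CPM in HSP90i, a log2 fold change of -0.62 ± 0.10 (edgeR adjusted p = 0.000625). Tnfaip3 encodes A20, a ubiquitin-editing enzyme that shuts the pathway off (chr10:19000910-19015410). It had 35.4, 36.9 and 33.2 CPM in Control and 15.3, 16.4 and 15.8 CPM in HSP90i, a log2 fold change of -1.15 ± 0.07 (edgeR adjusted p = 1.19e-06). Neither gene's groups overlapped. The 7 calls in MEF were also made with each MEF library left out in turn, Control replicate 3 included.

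**Figure D1:**
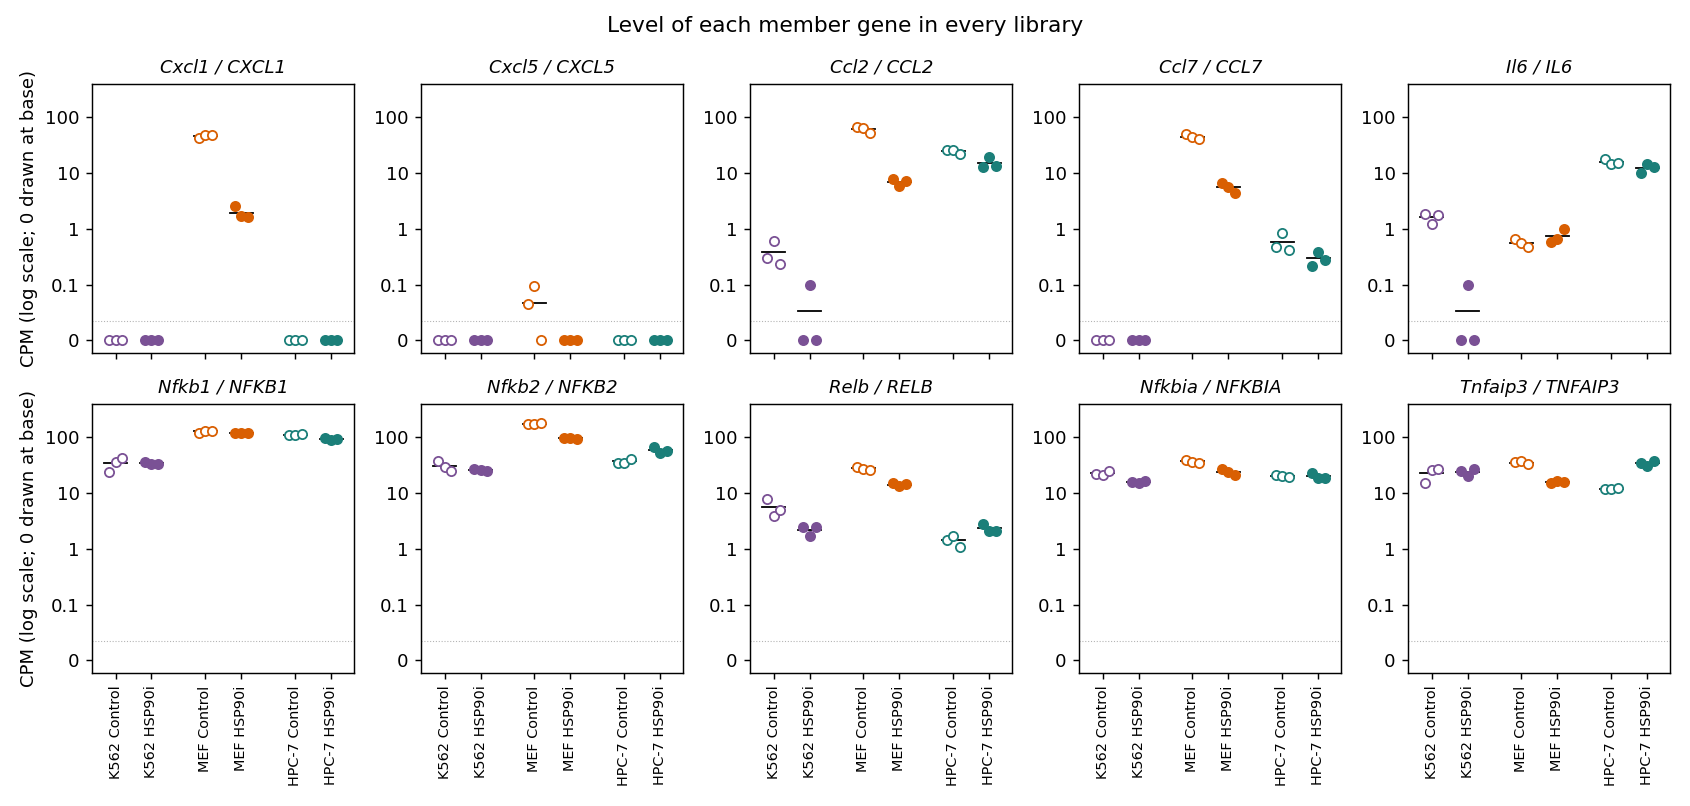
Level of each of the 10 genes in every library, in CPM on a log axis with 0 drawn at the base, open points for Control, filled points for HSP90i and bars for group means of 3 libraries. In MEF (orange) Cxcl1, Ccl2 and Ccl7 stand above 40 CPM in Control and below 8 CPM in HSP90i; in HPC-7 (green) Tnfaip3 is higher in all 3 HSP90i libraries, at 30.1 to 37.4 CPM against 11.7 to 12.4.

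In HPC-7 the members split. Of 7 members tested, 3 rose (Nfkb2, Relb and Tnfaip3), 2 fell (Ccl2 and Nfkb1) and 2 were not called (Il6 and Nfkbia). Over all 11703 genes tested, 73.1% were called, 36.5% higher and 36.6% lower. The groups did not overlap for 5 of the 7 members and for 77.4% of all genes. All genes split in the same way, so the number called, the split and the lack of overlap did not set the members apart. The median log2 fold change was -0.01 over the 7 members and -0.00 over all genes. Cxcl1 and Cxcl5 had no read in any HPC-7 library, which allows at most 0.0737 CPM over the Control group and 0.0858 CPM over HSP90i at 3 counts.

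Tnfaip3 rose most among the members in HPC-7, the opposite direction to MEF. It had 11.98, 11.7 and 12.4 CPM in Control and 34.3, 30.1 and 37.4 CPM in HSP90i, a log2 fold change of 1.49 ± 0.11 (edgeR adjusted p = 1.75e-06). Every HSP90i library stood well above every Control library. Nfkb2 had 34.5, 35.0 and 41.0 CPM in Control and 66.4, 53.1 and 56.5 CPM in HSP90i, a log2 fold change of 0.68 ± 0.11 (edgeR adjusted p = 0.000256). Relb was low in this line, with 25, 20 and 13 reads in Control and 39, 21 and 23 in HSP90i. Its levels of 1.47, 1.71 and 1.08 CPM and 2.83, 2.06 and 2.10 CPM did not overlap, with a log2 fold change of 0.73 ± 0.25 (edgeR adjusted p = 0.0248). The Relb call was lost with DESeq2 (adjusted p = 0.148) and without Control replicate 1, Control replicate 3 or HSP90i replicate 1 (edgeR adjusted p from 0.0624 to 0.115). Nfkb1 fell, from 108.6, 112.0 and 115.2 CPM to 95.2, 88.0 and 94.9 CPM. Its log2 fold change was -0.27 ± 0.07 (edgeR adjusted p = 0.00509), with no overlap of the groups.

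Among the secreted factors in HPC-7, Ccl2 fell, as it did in MEF, by a smaller amount. It had 25.4, 26.1 and 22.0 CPM in Control and 12.6, 19.6 and 13.5 CPM in HSP90i, a log2 fold change of -0.70 ± 0.16 (edgeR adjusted p = 0.00259). HSP90i replicate 2 lay closest to the Controls. Il6 had 18.1, 14.4 and 14.8 CPM in Control and 10.1, 14.5 and 12.9 CPM in HSP90i, and the groups overlapped. Its log2 fold change of -0.36 ± 0.15 did not pass (edgeR adjusted p = 0.0589), but it passed without HSP90i replicate 2 (0.0124) and with no filter on low counts (0.0128). Ccl7 had 23 reads in Control and 10 in HSP90i, too few to be tested, a ratio of 0.507 with a counting interval of 0.215 to 1.11. Nfkbia had 21.0, 19.998 and 19.5 CPM in Control and 22.7, 18.9 and 18.6 CPM in HSP90i. Its groups overlapped, with a log2 fold change of -0.01 ± 0.11 (edgeR adjusted p = 0.964).

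Markers of other blood cell types moved in the same HPC-7 libraries, where 36.5% of all genes tested rose and 36.6% fell. The 7 macrophage and monocyte markers summed to 62.5 to 65.3 CPM in Control and 216 to 262 CPM in HSP90i, and 3 of the 4 tested rose. Itgam went from 26.3 ± 1.61 to 167.5 ± 17.8 CPM (mean ± SD, n = 3) and Lyz2 from 33.4 ± 2.40 to 69.1 ± 5.72 CPM. Emr1 rose from 0.298 ± 0.156 to 1.45 ± 0.258 CPM, while Cd68 was not called. Emr1 passed the filter on low counts through the HSP90i libraries alone. Its place among the 3 thus depended on the group where it is high. Cd14 and Csf1r were too low to be tested, at 0.141 and 0.160 CPM on average in Control and 1.02 and 1.11 CPM in HSP90i. The 7 blood precursor markers rose in sum to 4357 to 4896 CPM, with 5 of 7 called higher. The erythroid markers in the table summed to 25.6 to 27.6 CPM in Control and 101 to 135 CPM in HSP90i, and all 3 tested rose, Gata1 from 22.9 ± 1.37 to 105.7 ± 17.1 CPM. The 4 endothelial markers summed to 7.40 to 9.34 CPM in Control and 40.1 to 50.4 CPM in HSP90i. Almost all of that sum was Pecam1, which alone was tested and rose. Cdh5, Kdr and Tek had no read in HPC-7 Control. In HSP90i they had at most 0.126 CPM on average, scaled over all mouse libraries. The part of these markers in the changes of Tnfaip3, Nfkb2 and Relb was not tested. In MEF the macrophage and monocyte list summed to 17.4 to 18.9 CPM in Control and 13.3 to 15.3 CPM in HSP90i. Of the 3 markers tested there, Cd68 (2.08 ± 0.242 to 4.58 ± 0.962 CPM) and Csf1r (3.08 ± 0.547 to 6.78 ± 0.947 CPM) rose and Cd14 (11.2 ± 0.906 to 2.71 ± 0.363 CPM) fell. Emr1 and Itgam had no read in MEF HSP90i and at most 0.282 CPM on average in Control. The 8 fibroblast markers of MEF went in sum to 21855 to 22452 CPM in HSP90i, with 5 higher and 3 lower. Of all genes tested in MEF, 35.1% rose and 38.2% fell. The part of these markers in the MEF results was not tested.

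In K562 fewer members were measurable and fewer were called. CXCL1, CXCL5 and CCL7 had no read in any library. Of 6 members tested, 0 rose, 3 fell (IL6, RELB and NFKBIA) and 3 were not called (NFKB1, NFKB2 and TNFAIP3). Over all 13456 genes tested, 11.1% were called, 5.11% higher and 5.96% lower. The groups did not overlap for 3 of the 6 members and for 35.2% of all genes. The median log2 fold change was -0.39 over the 6 members and -0.02 over all genes. The number of genes called depended on the libraries, from 348 without HSP90i replicate 2 to 3916 without Control replicate 1.

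IL6 fell in K562 to almost no reads. It had 19, 14 and 15 reads in Control (1.87, 1.21 and 1.79 CPM) and 0, 1 and 0 in HSP90i. The 48 reads against 1 gave a 47.1-fold higher level in Control, with an exact counting interval of 8.06 to 1898. The fitted log2 fold change was -5.13 ± 0.69 (edgeR adjusted p = 0.00342), a size that depends on the prior count. IL6 passed the filter on low counts through the Control libraries alone. Its place among the 3 that fell thus depended on the group where it is high. IL6 was called under all 11 alternatives, and it was the only member called when any one HSP90i library was left out. CCL2 had 3, 7 and 2 reads in Control and 0, 1 and 0 in HSP90i, and was not tested. Its 12 reads against 1 gave an 11.8-fold higher level in Control, with a counting interval of 1.74 to 503.

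RELB and NFKBIA fell in K562, as Relb and Nfkbia did in MEF. RELB had 7.86, 3.87 and 5.01 CPM in Control and 2.46, 1.70 and 2.44 CPM in HSP90i, a log2 fold change of -1.34 ± 0.32 (edgeR adjusted p = 0.0326). NFKBIA had 21.6, 21.3 and 24.8 CPM in Control and 15.9, 14.9 and 16.4 CPM in HSP90i, a log2 fold change of -0.52 ± 0.14 (edgeR adjusted p = 0.0477). Neither gene's groups overlapped, but both calls were close to the threshold. Without any one of the HSP90i libraries both were lost, with edgeR adjusted p from 0.106 to 0.150 for RELB and from 0.155 to 0.189 for NFKBIA. NFKBIA was also lost without Control replicate 2 (0.113) or 3 (0.102) and with no filter on low counts (0.0985).

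The remaining K562 members overlapped between groups. NFKB1 had 24.3, 36.2 and 41.6 CPM in Control and 36.1, 32.6 and 33.3 CPM in HSP90i, a log2 fold change of 0.00 ± 0.20 (edgeR adjusted p = 0.998). TNFAIP3 had 15.3, 25.4 and 27.4 CPM in Control and 24.7, 20.4 and 27.4 CPM in HSP90i, a log2 fold change of 0.09 ± 0.23 (edgeR adjusted p = 0.842). Control replicate 1 was the lowest library for both genes. NFKB2 had 37.6, 29.8 and 24.7 CPM in Control and 26.9, 25.7 and 24.5 CPM in HSP90i, a log2 fold change of -0.26 ± 0.17 (edgeR adjusted p = 0.378). There Control replicate 1 was the highest library.

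**Figure D2:**
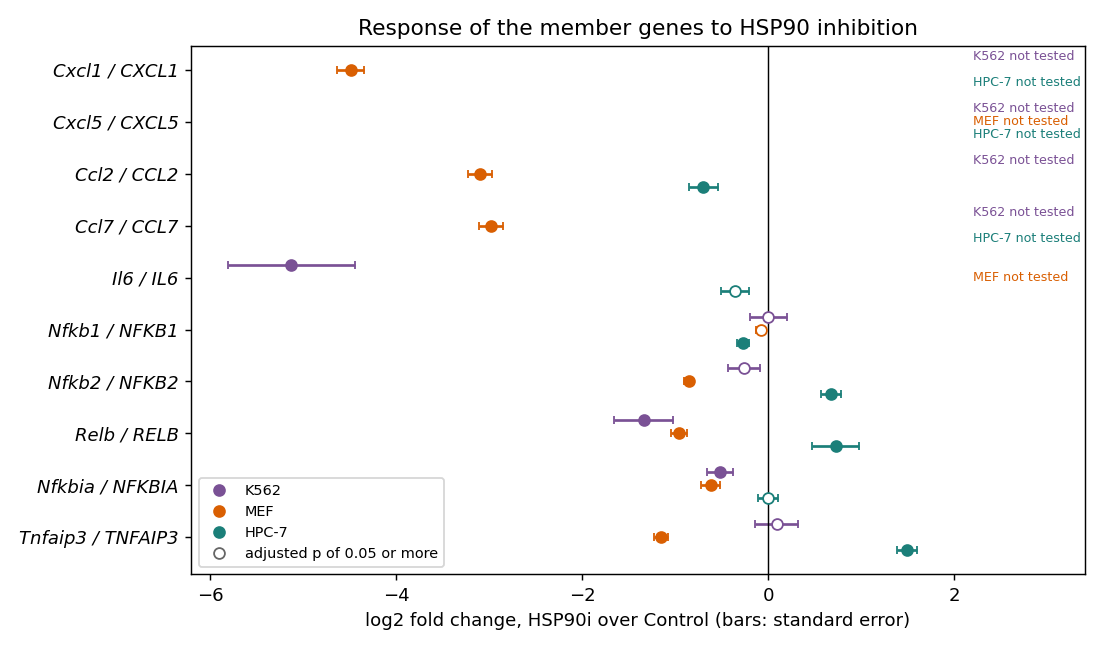
Log2 fold change of HSP90i over Control for each gene (points) with its standard error (bars) in K562, MEF and HPC-7; filled points had an edgeR adjusted p under 0.05, and genes with too few reads are written as not tested. Nfkb2, Relb and Tnfaip3 lie below 0 in MEF (-0.86, -0.96 and -1.15) and above 0 in HPC-7 (0.68, 0.73 and 1.49).

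The response of the mouse lines was compared in one fit over the 12 mouse libraries, as the difference of the MEF and HPC-7 log2 fold changes. Of 8 members tested, the response differed for 7: for 6 it was lower in MEF and for Nfkb1 it was higher. Over all 13720 genes tested, 43.2% differed. The median difference over all genes tested was 0.11 with TMM scaling and -0.01 with RLE scaling. Tnfaip3 differed by -2.53 ± 0.13 (edgeR adjusted p = 4.56e-09), Nfkb2 by -1.42 ± 0.13 (8.21e-07) and Relb by -1.57 ± 0.24 (0.000106). These 3 genes were called in opposite directions in the separate fits. Ccl2, called lower in both lines, differed by -2.28 ± 0.22 (edgeR adjusted p = 1.52e-06). The differences for Ccl7, at -1.91 ± 0.61 (edgeR adjusted p = 0.0210), and Nfkbia, at -0.50 ± 0.16 (0.0196), stood nearer the threshold. Ccl7 entered this fit through its MEF libraries, with 23 and 10 reads in HPC-7, so its place among the 7 depended on the line where it is high. The Ccl7 difference was lost without HPC-7 HSP90i replicate 2 (0.0969) or 3 (0.0548). The Nfkbia difference was lost without MEF Control replicate 1 (0.0587), MEF HSP90i replicate 3 (0.0501) or HPC-7 HSP90i replicate 1 (0.0773).

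For Nfkb1 the difference of 0.31 ± 0.09 (edgeR adjusted p = 0.0110) was not called with RLE scaling, where it was 0.18 (0.129), nor with DESeq2 (0.136). It was also lost without HPC-7 Control replicate 1, 2 or 3, at 0.11 (0.391), 0.097 (0.479) and 0.078 (0.577). Il6, with 26 and 30 reads in MEF, entered this fit through HPC-7. It did not differ beyond the threshold, at 0.72 ± 0.42 (edgeR adjusted p = 0.188). Cxcl1 could not be compared, since it had no read in HPC-7. Line and dose cannot be told apart in any of these differences, and the K562 response was not tested against the mouse lines.

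**Figure D3:**
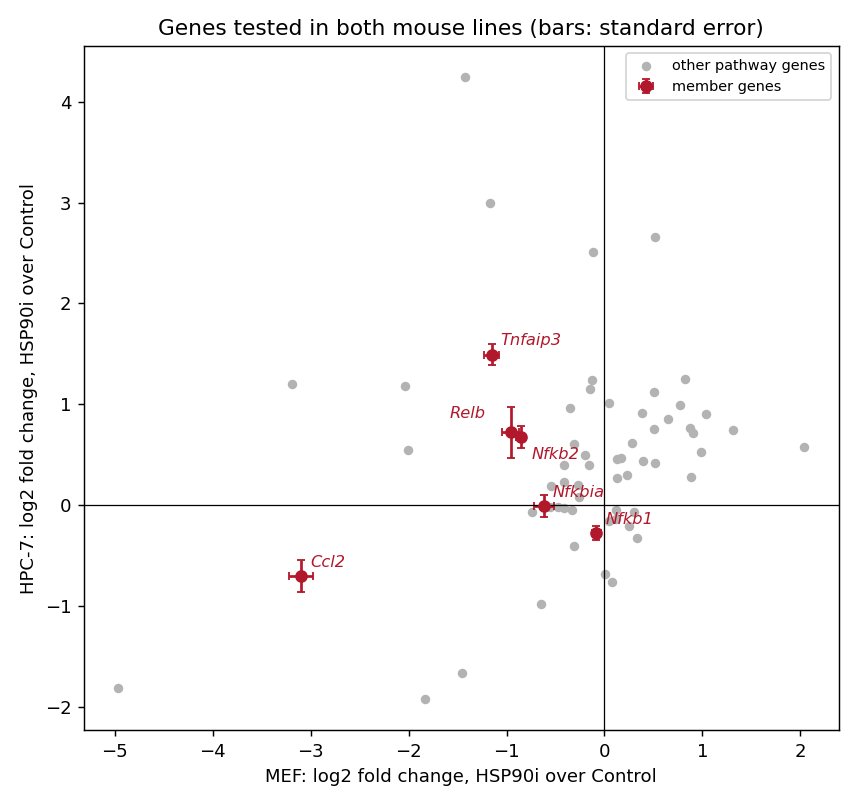
Log2 fold change of HSP90i over Control in MEF (horizontal axis) and HPC-7 (vertical axis) for the 63 member and pathway genes tested in both lines; red points are the 6 members with their standard errors and grey points the other 57. Tnfaip3, Relb and Nfkb2 lie in the upper left, lower in MEF and higher in HPC-7, and Ccl2 lies in the lower left.

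The untreated lines also differed in these genes. MEF Control was compared with HPC-7 Control in the same fit, where all 8 members tested differed, beside 83.2% of all genes. 7 were higher in MEF and Il6 was lower, where the median log2 difference over all genes tested was -0.08. Ccl7 had 23 reads in HPC-7 Control and entered the fit through MEF. Il6 had 26 reads in MEF Control and entered it through HPC-7. The places of these genes among the 8 thus depended on the line where each is high. The log2 difference was 6.48 ± 0.20 for Ccl7, 4.47 ± 0.15 for Relb, 2.44 ± 0.09 for Nfkb2, 1.74 ± 0.09 for Tnfaip3, 1.51 ± 0.14 for Ccl2, 1.08 ± 0.11 for Nfkbia and 0.38 ± 0.06 for Nfkb1. For Il6 it was -4.52 ± 0.23. The smallest difference, that of Nfkb1, had an edgeR adjusted p of 4.19e-05. Cxcl1 was at least 701-fold higher in MEF Control than 3 counts over the HPC-7 Control libraries would give. K562 is another species and was scaled apart, so its place is a description. Its Control levels lay below both mouse lines for NFKB1, between them for RELB, IL6 and TNFAIP3, and overlapped HPC-7 for NFKB2. For NFKBIA, K562 (21.3 to 24.8 CPM) and HPC-7 (19.5 to 21.0 CPM) nearly met.

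The other genes of the pathway are given by lists, each with the number that rose, fell or were not called among those tested. The lists were also chosen with earlier results of these data known, so their counts and medians are a description. These counts stand beside the shares of all genes tested that rose and fell: 35.1% and 38.2% in MEF, 36.5% and 36.6% in HPC-7, and 5.11% and 5.96% in K562. The other Rel subunits and IkB proteins had 0 rise, 3 fall and 3 not called in MEF, with a median log2 fold change of -0.20. In HPC-7 the same list had 2, 2 and 3 with a median of -0.05, and in K562 it had 0, 2 and 5 with a median of -0.31. Nfkbie, the gene of IkB epsilon, fell in MEF from 11.5 ± 0.865 to 2.93 ± 0.286 CPM (log2 fold change -2.01 ± 0.13, edgeR adjusted p = 1.36e-06). Rel, the gene of the lymphoid subunit c-Rel, rose in HPC-7 from 12.6 ± 0.578 to 29.8 ± 4.66 CPM (1.25 ± 0.13, 1.21e-05). In K562 BCL3, a nuclear IkB protein that binds p50 and p52, fell by 1.67 ± 0.21 on the log2 scale (0.00286). NFKBIZ, another nuclear IkB protein, fell by 1.25 ± 0.28 (0.0249) there, a call that was lost without Control replicate 2 or any one HSP90i replicate.

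Of the kinases and ubiquitin factors in HPC-7, 13 rose, 2 fell and 3 were not called, with a median of 0.46, where 73.1% of all genes were called and 36.5% rose. In MEF 8 rose, 3 fell and 7 were not called (median 0.20), and in K562 0 rose, 1 fell and 17 were not called (median 0.02). In MEF Ikbkg, the gene of the IKK regulatory subunit NEMO, rose from 77.6 ± 0.385 to 192.4 ± 6.86 CPM (log2 fold change 1.31 ± 0.05, edgeR adjusted p = 5.54e-08). Sharpin, a subunit of the linear ubiquitin ligase, rose there by 1.04 ± 0.05 on the log2 scale (2.85e-07). Tnip2, which encodes a partner of A20, rose in HPC-7 by 1.01 ± 0.09 (6.04e-06).

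Receptors and adaptors were mixed in MEF, where 73.4% of all genes were called, as were 73.1% in HPC-7. In MEF 9 rose, 9 fell and 4 were not called (median 0.07), in HPC-7 11 rose, 3 fell and 4 were not called (median 0.28), and in K562 1 rose, 0 fell and 17 were not called (median -0.05). Tnfrsf12a, the receptor for TWEAK, fell in MEF from 148.2 ± 6.14 to 4.66 ± 0.553 CPM (log2 fold change -4.96 ± 0.09, edgeR adjusted p = 4.71e-09). In HPC-7 it fell from 4.22 ± 1.14 to 1.20 ± 0.321 CPM (-1.81 ± 0.29, 0.000274). Traf3, an adaptor that restrains the noncanonical route, fell in both mouse lines, by 1.45 ± 0.07 on the log2 scale in MEF (2.26e-07) and by 1.66 ± 0.18 in HPC-7 (2.12e-05). Tnfrsf1b, a receptor for TNF, fell in MEF by 1.52 ± 0.07 (1.97e-07). Irak2, a kinase adaptor of interleukin 1 receptors, rose in HPC-7 from 2.36 ± 0.720 to 14.6 ± 2.14 CPM (2.66 ± 0.21, 2.68e-06). Irak4 rose there by 1.12 ± 0.10 (5.58e-06) and Traf5 by 1.16 ± 0.13 (2.92e-05). In K562 TRAF6, an adaptor with ubiquitin ligase activity, rose by 1.22 ± 0.24 (0.0148), a call lost without Control replicate 2 or any one HSP90i replicate.

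Of the other NF-kB targets in MEF, 3 rose, 12 fell and 2 were not called, with a median of -0.65, beside 38.2% of all genes that fell. In HPC-7 9 rose, 3 fell and 1 was not called, with a median of 0.77, beside 36.5% of all genes that rose. In K562 2 rose, 4 fell and 8 were not called, with a median of -0.14. Tnfaip2 fell in MEF from 64.2 ± 1.48 to 7.05 ± 0.297 CPM (log2 fold change -3.19 ± 0.07, edgeR adjusted p = 9.14e-09). Ier3, an early stress gene, fell there by 2.04 ± 0.07 on the log2 scale (5.54e-08), Ptx3, a soluble pattern receptor, by 1.80 ± 0.06 (5.54e-08) and Ptgs2, the inducible cyclooxygenase, by 1.84 ± 0.14 (5.08e-06). The macrophage growth factor gene Csf1 fell in MEF from 343.0 ± 6.65 to 153.0 ± 6.62 CPM (9.81e-08) and rose in HPC-7 from 0.883 ± 0.200 to 7.06 ± 0.889 CPM (1.98e-06). In HPC-7 Csf1 passed the filter on low counts through its HSP90i libraries.

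In HPC-7 Il1b, the gene of interleukin 1 beta, rose from 2.79 ± 0.386 to 19.2 ± 2.95 CPM (log2 fold change 2.76 ± 0.17, edgeR adjusted p = 7.68e-07), and the complement gene C3 from 1.996 ± 0.152 to 11.3 ± 2.59 CPM (2.51 ± 0.21, 4.16e-06). Tnf went the other way, from 6.76 ± 0.752 to 1.20 ± 1.25 CPM (-2.58 ± 0.43, 0.000365), with HSP90i replicate 2 at 2.64 CPM and the others near 0.5 CPM. Tnf passed the filter on low counts through its Control libraries. In K562 IER3 fell by 2.01 ± 0.19 on the log2 scale (0.000661) and LIF by 1.27 ± 0.26 (0.0191), and CSF1 rose by 1.09 ± 0.14 (0.00243). The LIF call was lost without Control replicate 2 or any one HSP90i replicate.

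The other chemokines were few. In MEF, of 6 tested, 0 rose, 5 fell and 1 was not called, with a median of -1.22. Cx3cl1 fell there from 88.7 ± 4.11 to 20.7 ± 2.12 CPM (log2 fold change -2.09 ± 0.08, edgeR adjusted p = 8.00e-08) and Cxcl12, a factor that retains blood stem cells, from 386.5 ± 11.8 to 189.7 ± 7.46 CPM (-1.03 ± 0.05, 1.95e-07). Ppbp fell by 2.83 ± 0.13 on the log2 scale (2.39e-07). Ccl9 fell in MEF from 5.73 ± 0.606 to 2.11 ± 0.318 CPM (-1.42 ± 0.17, 6.44e-05) and rose in HPC-7 from 0.731 ± 0.204 to 14.1 ± 1.16 CPM (4.24 ± 0.20, 2.29e-07). In HPC-7, of 4 tested, 2 rose, 1 fell and 1 was not called (median 0.64), and the fall was that of the platelet factor gene Pf4, from 303.9 ± 3.92 to 135.1 ± 13.5 CPM. Ccl9 and Ccl17, the 2 that rose, passed the filter on low counts through their HSP90i libraries. The 1 chemokine tested in K562 was not called, at -0.39.

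Receptors for the products of the 10 genes were measured in few cases. In HPC-7, of 5 tested, 3 rose, 1 fell and 1 was not called, with a median of 1.26. Il6ra, the interleukin 6 receptor, rose there from 34.8 ± 2.32 to 82.9 ± 5.37 CPM (log2 fold change 1.26 ± 0.09, edgeR adjusted p = 1.32e-06). Ccr1, a receptor of CCL7, rose by 1.43 ± 0.19 (6.80e-05), and Cxcr2, the receptor of CXCL1 and CXCL5, rose by 2.12 ± 0.45 (0.00165) at 8, 2 and 3 reads in Control and 12, 17 and 20 in HSP90i. Cxcr2 passed the filter on low counts through the HSP90i libraries alone. Its place among the 3 that rose thus depended on the group where it is high. Ccr2, the receptor of CCL2, fell from 18.6 ± 1.05 to 9.76 ± 2.51 CPM (-0.95 ± 0.16, 0.000449) and was named after its value was seen. In MEF 1 rose, 1 fell and 1 was not called (median 0.11), and in K562 0 of 3 were called (median -0.24).

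**Figure D4:**
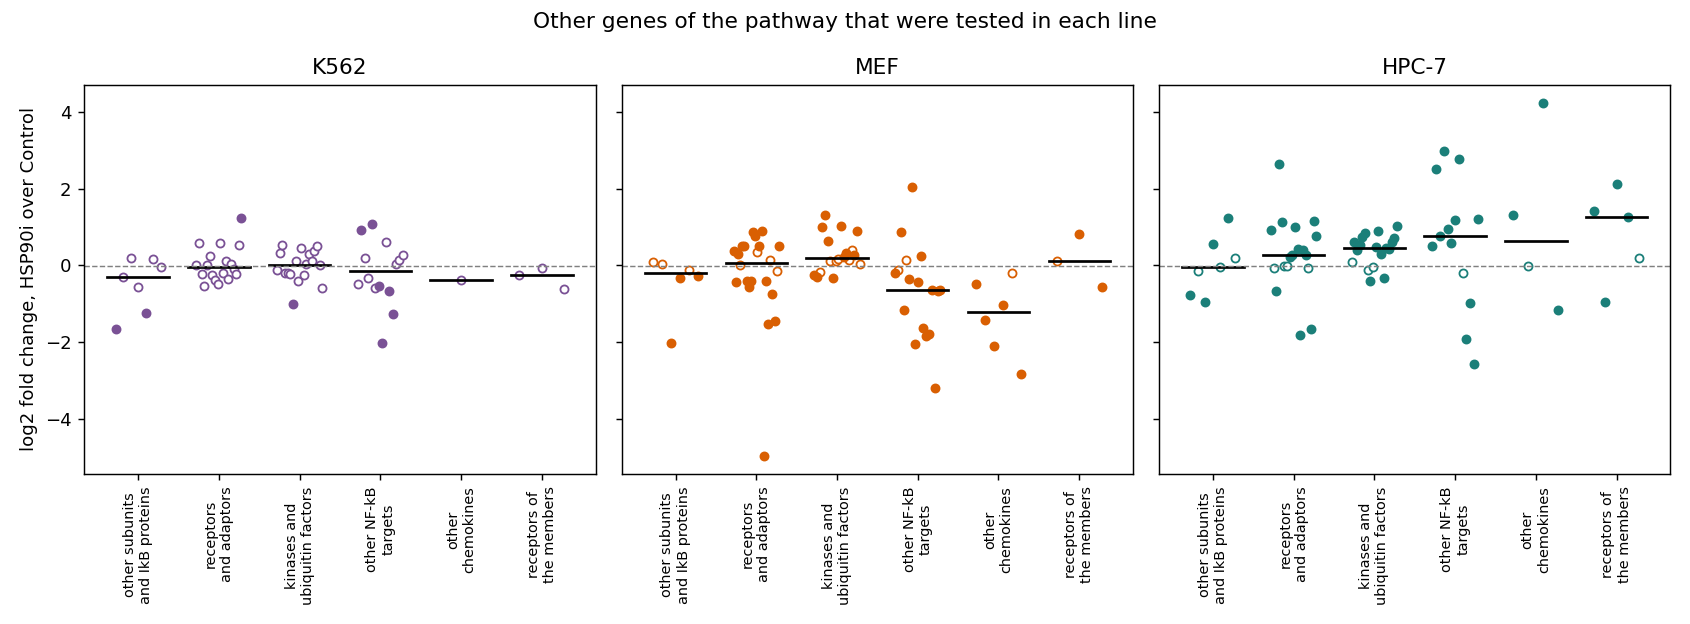
Log2 fold change of HSP90i over Control for the other tested genes of the pathway in K562, MEF and HPC-7, grouped by list; filled points had an edgeR adjusted p under 0.05, open points did not, bars are medians and the dashed line is the median of all genes tested. The other NF-kB targets have a median of -0.65 in MEF and 0.77 in HPC-7, and few K562 points are filled.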

How the data were processed

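RNA-seq libraries of K562, MEF and HPC-7 cells were analysed, 3 Control and 3 HSP90i in each line, grouped by their titles. The count columns named for DMSO were taken as the Control libraries of the same line and number. The authors deposited raw counts of reads for each gene. TopHat2 2.0.13 and featureCounts are among the tools listed, without a role, in the submitters' processing notes, beside Trim Galore, Picard and DESeq2. Those notes list GRCh37 and hg38 for human and GRCm38 and mm10 for mouse. The build behind the K562 counts and any strand setting were not given in the sources used here. Overlapping and antisense genes could therefore share reads. The list of HSP90 ChIP-seq peaks in K562 was not used here. Mouse positions and promoter windows came from RefSeq tables of GRCm38.p6.

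Counts were filtered with filterByExpr, scaled with TMM and tested with edgeR 4.0.16 in R 4.3.3, by the quasi-likelihood test with Benjamini-Hochberg adjustment over all genes tested in a line and a threshold of 0.05. The standard error is the log2 fold change divided by the square root of F. The MEF and HPC-7 responses, and their Control levels, were compared in a fit over 12 mouse libraries. Members with too few reads were given as ratios of summed reads with exact 95% Poisson intervals, and a count of 0 as at most 3 counts. PCR reads without molecular identifiers are not independent molecules, so these cover counting error only. The procedure was tested on simulated data. Figures were drawn with matplotlib 3.10.9.

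The members and the lists were chosen with earlier results of these data known. All members are named. From each list, named genes were at most 5 per line with the smallest p among called genes that had groups without overlap and an absolute log2 fold change of 1 or more, and likewise for the difference between mouse lines. Not every gene so chosen is described. No replicates were duplicates: chi-square per degree of freedom between replicates was at least 2.35. Alternatives were RLE factors, library size alone, no filter on low counts, DESeq2 1.42.0, a replicate block, each library left out in turn, and, for the Control levels, the 6 mouse Control libraries alone.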

Additional observations from a re-analysis of the deposited data

Results flagged for a closer look

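The response to HSP90 inhibition differed between MEF and HPC-7, by edgeR's test of the difference itself, for 7 of the 8 members tested. Of all genes tested, 43.2% differed. On the log2 scale, MEF minus HPC-7, the differences were -2.28 for Ccl2, -1.91 for Ccl7, 0.31 for Nfkb1, -1.42 for Nfkb2, -1.57 for Relb, -0.50 for Nfkbia and -2.53 for Tnfaip3. The calls for Ccl7, Nfkb1 and Nfkbia were each lost under some of the alternatives.

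The other genes of the pathway named below were chosen because this same test called them, with an absolute log2 difference of 1 or more. That they differed follows from the choice, and 43.2% of all genes tested differed. Of the chemokines, Ccl9 differed by -5.54, Ppbp by -3.35 and Ccl17 by -2.55. Of the subunits and inhibitors, Nfkbie differed by -2.44 and Rel by -1.25. Of the targets, Csf1 differed by -4.04, Ier3 by -3.10, Tnfaip2 by -4.28, C3 by -2.51 and Icam1, an adhesion molecule gene, by 1.57. Of the receptors and adaptors, Tnfrsf1b differed by -3.02, Irak2 by -2.03, Tnfrsf12a by -3.04, Traf5 by -1.19 and Il1r1 by -1.99. Several of these values rest on few reads in one line. Ppbp, Tnfrsf1b and Il1r1 did not pass the filter in HPC-7, where their Control levels were 0.361, 0.331 and 0.229 CPM on average, and entered the comparison through MEF, as did Ccl7. Ccl17 did not pass in MEF, and Icam1 had 0.246 CPM in MEF Control. Line and dose cannot be told apart in these values.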

How the results depend on the processing

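In MEF, 7 members were lower and 0 higher under all 11 alternatives. K562 was the least stable line. With each library left out in turn, the K562 members called ranged from 1 to 3 (all lower) and all genes called from 348 to 3916, against 3 and 1490 with every library; the cause was not tested. Library size alone moved the K562 median of all genes to -0.12, and there NFKB1 was -0.11 and TNFAIP3 -0.025, both reversed without a call. With libraries left out, the uncalled values changed sign within -0.19 to 0.17 for NFKB1, -0.13 to 0.24 for TNFAIP3 and, in HPC-7, -0.12 to 0.045 for Nfkbia. The number of members with a higher response in MEF than in HPC-7 was 1 with TMM and 0 with RLE factors or DESeq2, and 0 to 1 with libraries left out. The HPC-7 Ccl17 call was lost with DESeq2 (adjusted p = 0.0640). Over genes and settings, 1139 kept their side of the threshold, 37 lost a call, 2 gained one and 9 changed sign. The replicate numbers did not pair the libraries in every case: in their deviations from the group means, same-numbered libraries correlated at 0.281, 0.0417 and 0.451 in K562, where different numbers reached 0.169, at -0.245 to 0.268 in MEF and at -0.0898 to 0.0235 in HPC-7. With the replicate block 7 members were called in MEF, 5 in HPC-7, 7 in the difference and 2 in K562, where NFKBIA had -0.52 (edgeR adjusted p = 0.0525), and 1810 genes in all were called in K562, 8796 in MEF, 8130 in HPC-7 and 5456 in the difference. Depth limits CXCL1 and CCL7 outside MEF, CXCL5 in all 3 lines, CCL2 in K562 and Il6 in MEF, none of which was tested within that line. Ccl7 and Il6 were tested in the fit over both mouse lines, which each entered through the line where it is high.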
